A study of Mus musculus with 18 samples.

Results

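Cadherins and protocadherins are adhesion proteins of the cell surface, and alpha-N-catenin is the protein that ties cadherins to actin in neurons. The results concern 6 of their genes: the protocadherin genes Pcdh7, Pcdh9 and Pcdh15, the cadherin genes Cdh4 and Cdh18, and Ctnna2, which encodes alpha-N-catenin. The members are all sites that the authors listed as differential for histone H3.3 and placed in the gene body or promoter of 1 of these genes. There were 16 such sites among 2300 listed, 12 of 1286 in the comparison of susceptible re-exposed mice with controls and 4 of 1014 in the comparison of acutely stressed mice with controls. All 16 lay in gene bodies and none in a promoter. The genes and sites were chosen from the listed differences, so the differences themselves are given as a description, without a test.

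H3.3, a variant of histone H3, enters chromatin without DNA replication, and so it can be exchanged in neurons, which have stopped dividing. Classical cadherins bind the same cadherin on the facing cell through calcium-dependent outer domains. Their inner tails bind beta-catenin, which carries an alpha-catenin that reaches the actin cytoskeleton, and this chain helps to form and hold synapses. Protocadherins share the outer cadherin repeats but have other inner tails and do not join actin through this catenin chain.

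H3.3 was measured by chromatin immunoprecipitation with sequencing in C57Bl/6J mice, in the nucleus accumbens (the part of the ventral striatum that serves reward and motivation). Control mice came straight from the home cage. Acute stress mice were controls given 1 h of stress, with 5 min of aggression and then 55 min beside the aggressor. Susceptible mice had been through chronic defeat by aggressors, were scored as susceptible by social interaction testing 48 h later, and were given the same hour of stress again. The social interaction test at 48 h is recorded for the samples of all groups. All groups were taken at day 28, counted from the final chronic defeat, which only the susceptible mice had been through. Each of the 3 conditions was labelled with 3 ChIP and 3 Input libraries, each library from the pooled tissue of 5 animals. No susceptible group without the renewed stress was among the libraries, so earlier defeat, selection as susceptible and re-exposure cannot be told apart.

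The listed values are normalised ChIP read counts per library and site, with no separate Input values. One list covers 3 susceptible and 2 control libraries, the other 2 libraries of each group. Libraries are named by their position in the list, since the labels of the individual libraries are not given there. Both lists contain 18 identical intervals, and the control reads matched in all 18, so the comparisons share their controls. One read was worth 0.534 to 1.63 normalised counts in the susceptible list and 0.657 to 1.43 in the acute list, and total library sizes were not analysed here. A library at 0 reads allows up to 3 reads, which is 4.88, 2.48 or 4.4 normalised counts for susceptible libraries 1, 2 and 3. These limits, and all intervals below, cover counting error only. In whole tissue, fewer cells with H3.3 at a site and less H3.3 per cell cannot be told apart. Tissue identity could not be checked from lists of differential sites. Of 24 marker genes of medium spiny neurons, astrocytes, oligodendrocytes, microglia and endothelium, 2 carried a susceptible site (Aldh1l1 and Vwf) and 0 an acute site.

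Susceptible re-exposed mice had less H3.3 than controls at all 12 sites, and each of the 6 genes had at least 1. Over all listed sites of that comparison 97.6% were lower and 2.41% higher, so the shared direction is that of the whole list. Group means ran from 9.85 to 14.7 normalised counts in controls and from 1.10 to 3.93 in susceptible mice. The median log2 fold change in the authors' deposited table was -2.19 for the 12 sites, beside -2.42 for all 1255 lower sites. No library of one group overlapped the other group at any of the 12 sites, which also held for 100% of the listed lower sites. After acute stress 2 of the 4 sites were lower and 2 higher, beside 46.6% and 53.4% of the listed acute sites. No site of one comparison overlapped a site of the other.

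**Figure D1:**
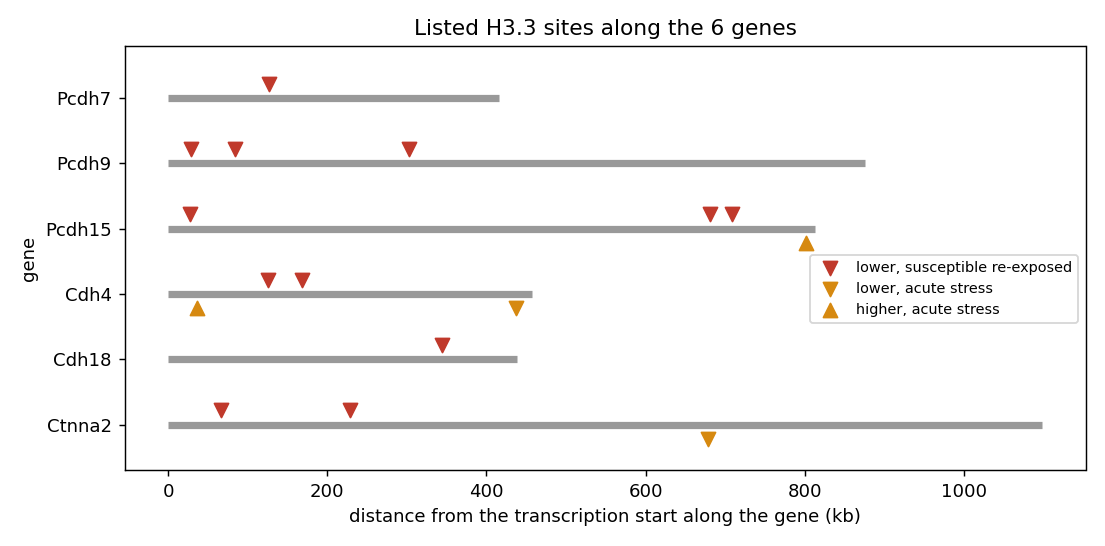
Position of each listed H3.3 site along the 6 genes, as distance from the transcription start in kb. Grey bars show the length of the gene in the authors' annotation. Triangles above a bar are sites lower in susceptible re-exposed mice, and triangles below it are acute stress sites, pointing up where higher and down where lower. Pcdh9 and Pcdh15 carry 3 susceptible sites each, and Cdh4 and Pcdh15 each carry a higher acute site away from their lower susceptible sites.

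Among the protocadherins, Pcdh9 had 3 lower sites after re-exposure, and 8 of the 635 genes with a susceptible site, Pcdh15 also among them, had 3 or more. Pcdh9 belongs with Pcdh7 to the delta protocadherins, which act in neuronal adhesion and circuit formation. Its gene lies on the minus strand of chromosome 14 (mm10, 93013700 to 93888888, 875.2 kb, transcript NM_001081377). The 3 sites were 28.8, 84.5 and 302.8 kb from the start, within the 34.6% of the gene nearest to it.

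The middle Pcdh9 site (chr14:93804226-93804475) had the steepest difference of the 12. Its values were 1.63, 1.66 and 0 in susceptible libraries, against 11.01 and 9.61 in controls. Every susceptible library was thus far under both controls, on 3 reads against 30, and the pooled fold of 8.45 had an exact 95% interval of 2.63 to 43.3. Its log2 fold change, -3.24, is from the authors' deposited table (p = 8.41e-06, adjusted p = 0.00137).

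The site nearest the Pcdh9 start (chr14:93859951-93860275) was uneven. It had 6.51, 1.66 and 0 in susceptible libraries against 13.76 and 11.21 in controls, so library 1 stood between the other susceptible libraries and the controls. The mean was 2.72 ± 3.38 (SD, n = 3) against 12.5 ± 1.80 (SD, n = 2), a log2 ratio of -2.20. That ratio went to -3.91 without susceptible library 1 and to -1.61 without susceptible library 3. The third site (chr14:93585876-93586250) had 4.88, 4.97 and 1.47 against 14.68 and 13.88, a mean of 3.77 ± 2.0 (SD, n = 3) against 14.3 ± 0.566 (SD, n = 2). There library 3 was the low one, and the log2 fold change in the authors' deposited table was -1.92.

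Pcdh15 also had 3 lower sites after re-exposure, and a higher site after acute stress. Its product is known from the inner ear, where with cadherin 23 it forms the tip links of hair cells. The authors placed the sites on transcript NM_001142737 of the plus strand of chromosome 10 (73821867 to 74634765, 812.9 kb). RefSeq gives the whole gene 1553.6 kb, so positions along it hold for that transcript.

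The lower Pcdh15 site near the start (chr10:73848501-73848875, 26.8 kb in) had 3.26, 4.14 and 2.94 in susceptible libraries and 15.6 and 12.81 in controls. The site at 681.2 kb (chr10:74502901-74503225) had 1.63, 3.31 and 4.4 against 12.85 and 12.81. The site at 708.5 kb (chr10:74530201-74530450) had 1.63, 1.66 and 1.47 against 10.09 and 9.61. No susceptible library was at 0 at any of these sites, and the last had the smallest spread of the 12, 1.59 ± 0.102 (SD, n = 3). The log2 fold changes in the authors' deposited table were -2.04, -2.04 and -2.64. The sites at 681.2 and 708.5 kb were the closest neighbours in the set, 27.3 kb apart, and lay 654.4 and 681.6 kb from the first.

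Pcdh7 had a single lower site (chr5:57844601-57844975, plus strand, 126.7 kb from the start of a gene of 415.2 kb, transcript NM_001122758). Its values were 8.14, 2.48 and 0 in susceptible libraries and 15.6 and 13.88 in controls. Library 1, at 8.14, held the highest susceptible value of any of the 12 sites. The mean was 3.54 ± 4.17 (SD, n = 3) against 14.7 ± 1.22 (SD, n = 2), with a susceptible SD larger than the mean. The log2 ratio was -2.06. It was -3.57 without susceptible library 1 and -1.47 without susceptible library 3.

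Of the classical cadherins, Cdh4 had 2 lower sites after re-exposure and 2 acute sites in opposite directions. Cdh4 encodes R-cadherin, a type I cadherin of brain and retina, and lies on the plus strand of chromosome 2 (179442478 to 179899375, 456.9 kb, transcript NM_009867). The first susceptible site (chr2:179567501-179567850, 125.2 kb in) had 3.26, 3.31 and 2.94 in susceptible libraries and 13.76 and 14.95 in controls. The libraries of a group were close here, 3.17 ± 0.201 (SD, n = 3) against 14.4 ± 0.841 (SD, n = 2). Its log2 fold change by the authors' deposited table was -2.18 (p = 9.57e-06, adjusted p = 0.00138).

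The second Cdh4 site (chr2:179610526-179610775, 168.2 kb in, 43.0 kb from the first) was thinner. It had 1.63, 2.48 and 0 in susceptible libraries and 10.09 and 9.61 in controls, on 4 and 29 reads. Its control mean of 9.85 ± 0.339 (SD, n = 2) was the lowest of all 1255 lower sites, a level it shared with the Pcdh15 site at 708.5 kb. The log2 ratio of -2.85 went to -3.60 without susceptible library 2 and to -2.26 without susceptible library 3.

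Cdh18, a type II cadherin expressed in the nervous system, had a single lower site (chr15:23380851-23381125, plus strand). It lay 344.5 kb into transcript NM_001081299, which spans 438.0 kb of a RefSeq gene of 928.6 kb. Values were 0, 3.31 and 1.47 in susceptible libraries and 10.09 and 10.68 in controls, with library 2 the highest of the susceptible libraries. The mean was 1.59 ± 1.66 (SD, n = 3) against 10.4 ± 0.417 (SD, n = 2), a log2 ratio of -2.70. That ratio went to -3.82 without susceptible library 2 and to -2.12 without susceptible library 1. The Cdh18 site was the susceptible site of these genes nearest to the listing threshold of 0.0001, with p = 8.73e-05 in the authors' deposited table. Sites with a p above it are not listed and not analysed here.

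Ctnna2 had 2 lower sites after re-exposure and 1 after acute stress. Loss of alpha-N-catenin in mice is known to disturb cerebellar and hippocampal layering and the stability of dendritic spines. The gene is the longest of the 6 in the authors' annotation, 1098.0 kb on the minus strand of chromosome 6 (76881637 to 77979667, transcript NM_009819). The site 66.7 kb in (chr6:77912801-77913200) had 3.26, 4.14 and 4.4 in susceptible libraries and 14.68 and 13.88 in controls. It had the shallowest difference of the 12, -1.86 as log2 fold change of the authors' deposited table, with all susceptible libraries close together (3.93 ± 0.597, SD, n = 3).

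The Ctnna2 site 228.6 kb in (chr6:77750876-77751175) had 0, 4.97 and 1.47 in susceptible libraries and 15.6 and 12.28 in controls. Its spread was wide on both sides, 2.15 ± 2.55 (SD, n = 3) and 13.9 ± 2.35 (SD, n = 2). The log2 ratio of -2.70 went to -4.25 without susceptible library 2 and to -2.11 without susceptible library 1.

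**Figure D2:**
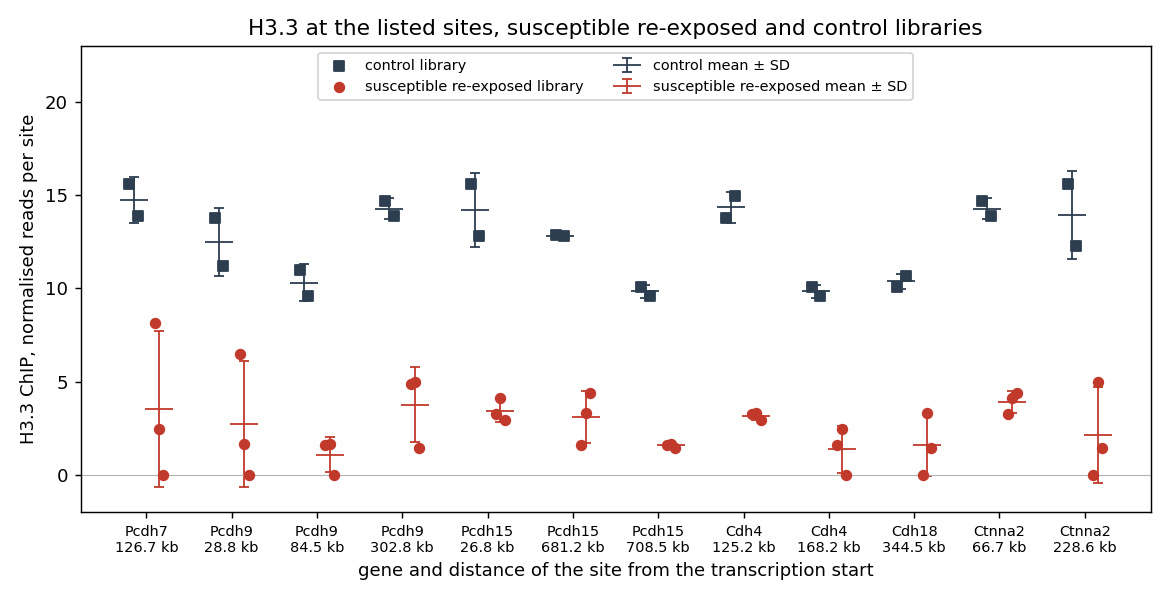
H3.3 in normalised reads at the 12 sites listed for susceptible re-exposed mice, labelled by gene and by distance from the start in kb. Dots are the 3 susceptible libraries and squares the 2 control libraries, with mean ± SD (the SD bars run below 0 where libraries were uneven). Control libraries sit between 9.61 and 15.6 and susceptible libraries between 0 and 8.14, with no overlap at any site.

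Across the 12 sites the susceptible libraries did not share the same low. Library 3 was the lowest at 8 sites and at 0 at 4, library 1 was at 0 at 2, and library 2 was at 0 at none and the highest at 8. Median values were 2.44, 3.31 and 1.47 for libraries 1, 2 and 3, beside 1.63, 2.48 and 1.47 over all 1255 lower sites. Over that whole list library 2, the deepest of the susceptible libraries, was at 0 at 2.87% of sites and libraries 1 and 3 at 23.2% and 21.8%. The part of depth in which library was lowest was not tested. Of the 12 sites, 6 had a susceptible library at 0, beside 42.9% of all lower sites.

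Pooled folds of control over susceptible reads ran from 3.55 to 8.45. Sites rested on 3 to 10 susceptible and 29 to 43 control reads, and the lower bounds of the exact intervals ran from 1.75 to 2.63. The intervals of all sites cover each other. Whether the 6 genes differed in size of difference was not tested, so they are not ordered by it here. In rank of p among the 1255 lower sites the 12 stood between 215 and 1217.

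**Figure D3:**
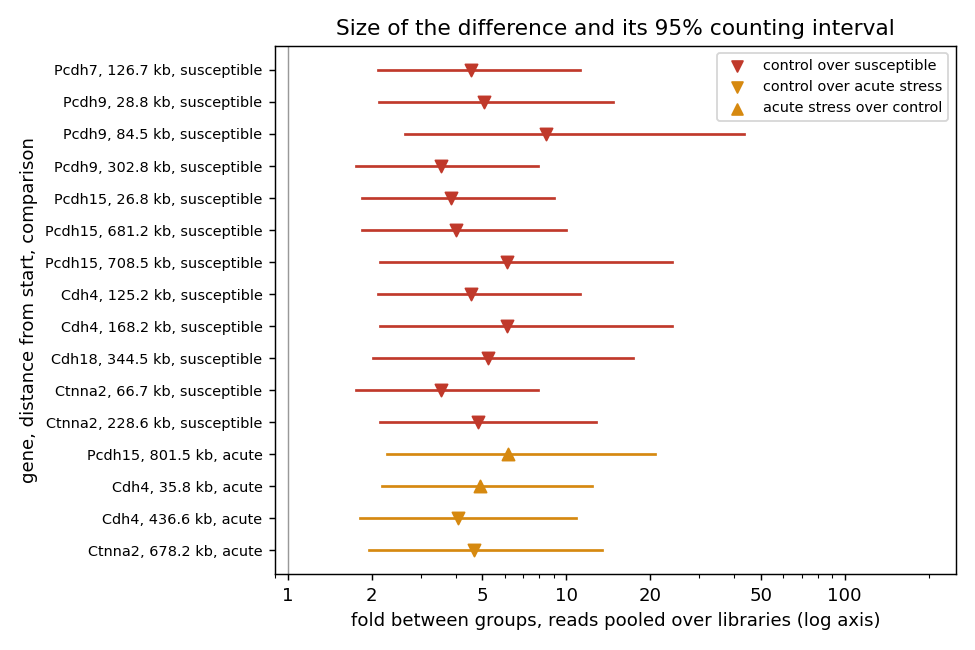
Fold between groups at all 16 sites from reads pooled over libraries, on a log axis, with exact 95% intervals for counting error. Triangles pointing down give control over stress and those pointing up acute stress over control. Folds lie between 3.55 and 8.45, and the intervals cover each other.

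After acute stress the higher sites were in Pcdh15 and Cdh4. The Pcdh15 site (chr10:74623276-74623550) had 11.41 and 14.29 after acute stress, against 2.16 and 1.97 in controls. It lay 801.5 kb into the transcript, 98.6% of the way along, and 93.1 kb past the nearest lower susceptible site of the gene. The Cdh4 site (chr2:179478101-179478475, 35.8 kb in) had 14.26 and 18.58 against 2.16 and 3.94, and lay 89.4 kb before the first lower susceptible site. Both acute libraries were above both controls at each site, as at 100% of the listed higher acute sites. The sites had pooled folds of 6.15 (exact 95% interval 2.27 to 20.8) and 4.89 (2.17 to 12.4). The log2 fold changes in the authors' deposited table were 2.64 and 2.43, beside a median of 2.2 for all higher acute sites.

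The lower acute sites were in Cdh4 and Ctnna2. The second Cdh4 site (chr2:179878976-179879275), 436.6 kb in and near the far end of the gene, had 2.85 and 5.72 after acute stress, against 16.22 and 16.43 in controls. It stood 400.8 kb from the higher site of the same gene. It was the closest of the 16 sites to the threshold, with p = 9.88e-05 and log2 fold change -1.93 by the authors' deposited table. Its log2 ratio of means was -2.52 without acute library 2 and -1.51 without acute library 1.

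The acute Ctnna2 site (chr6:77301301-77301625), 678.2 kb in, had 4.75 and 1.43 after acute stress, against 17.3 and 15.11 in controls. The log2 ratio was -2.39. It was -3.50 without acute library 1 and -1.77 without acute library 2, so its size depended on which library was kept. Pcdh7, Pcdh9 and Cdh18 had no listed acute site. Since the lists hold only sites with p under the threshold, H3.3 after acute stress at the susceptible sites, and the reverse, is not analysed here.

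**Figure D4:**
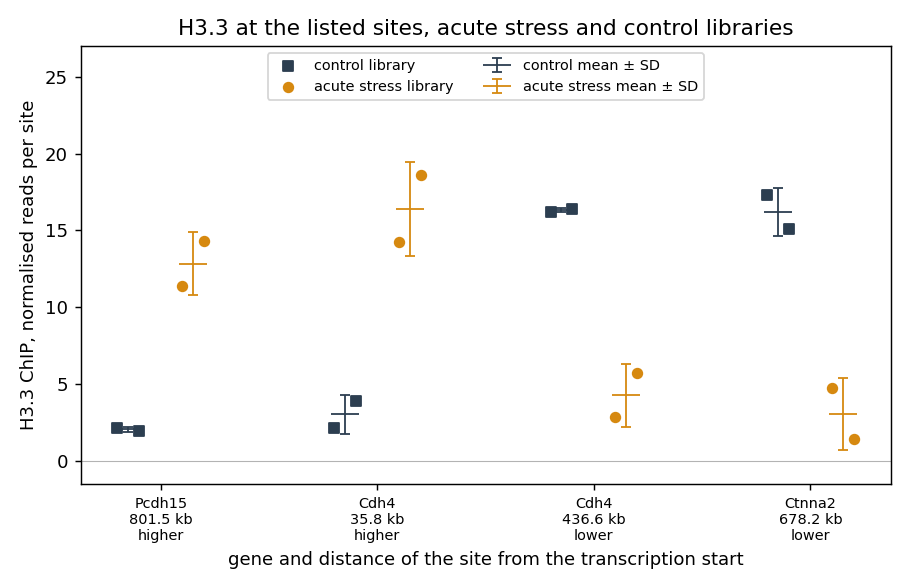
H3.3 in normalised reads at the 4 acute stress sites, labelled by gene, distance from the start in kb and direction. Dots are the 2 acute stress libraries and squares the 2 control libraries, with mean ± SD. At the higher sites of Pcdh15 and Cdh4 the acute libraries lie between 11.4 and 18.6 and the controls between 1.97 and 3.94, and at the lower sites of Cdh4 and Ctnna2 the order is the reverse.

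The control libraries are the same in both lists, so their reads can be set side by side along the genes. Reads were summed over the libraries of a group (3 susceptible, 2 acute or 2 control) and not scaled for depth. Stress and control reads per kb therefore do not compare directly. At the 14 lower sites of both lists the controls held 105 to 133 reads per kb of site. At the higher acute sites of Pcdh15 and Cdh4 they held 18.2 and 21.3 reads per kb. The stress libraries held 12 to 26.7 reads per kb at the lower sites and 80.0 and 74.7 at the higher ones. The choice of sites fixes this contrast, since lower sites must be high in controls and higher sites low in them.

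The authors' deposited table also gives an enrichment ratio per group, whose reference is not stated. At the 12 susceptible sites it was smaller in susceptible mice than in controls at 10. In controls it was listed as infinite at 5 of the 12, beside 60.3% of all lower sites. It was larger in susceptible mice at the Pcdh15 site at 681.2 kb (2.15 against 0.74) and infinite in both groups at the first Cdh4 site. Any finite value falls below an infinite one, which favours a smaller value in susceptible mice. How often that order held over all lower sites is not given here, so the count of 10 is no separate sign of lower H3.3. The control ratio was at least 1, infinite values included, at 75.7% of all lower sites. It was under 1 at 4 of the 12, namely the middle site of Pcdh9, the Pcdh15 site at 681.2 kb, the second site of Cdh4 and the site of Cdh18. The susceptible ratio was under 1 at 7 of the 12, and at least 1 at 49.1% of all lower sites. In controls the ratio was infinite at 60.4% of all higher acute sites. At the higher acute sites of Pcdh15 and Cdh4 it was 2.53 and 3.33 after acute stress and infinite in controls, so it did not follow the direction of the counts there. At the lower acute sites of Cdh4 and Ctnna2 it was 0.44 and 0.08 against 1.21 and 1.20.

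The 12 susceptible sites had a median distance of 147 kb from the start (range 26.8 to 708.5 kb), beside 66.6 kb for all 616 lower gene body sites. As a share of gene length the median was 28.9%, beside 52.1%. The genes are long, which sets how far from a start a site can lie. Their median site length was 325 bp, beside 275 bp for all lower sites. Sites not assigned to the gene itself were counted over the authors' transcript of each of the 6 genes and 500 kb on either side. Pcdh15, Cdh18 and Ctnna2 each had 1 such lower susceptible site, Pcdh7 had 1 lower acute site, and Pcdh9 and Cdh4 had none in either list. For Pcdh15 and Cdh18 that transcript is shorter than the RefSeq gene. The rate around other genes was not computed.

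Length also bears on how often such genes are listed. Of 20665 autosomal protein-coding RefSeq genes, 2.71% had a lower susceptible site, and of the 306 at least as long as Pcdh7, the shortest of the 6 at 417.1 kb in RefSeq, 42.5% did. A lower acute site was found in 19.0% of these long genes and a higher acute site in 16.7%. The 6 genes held 2.25 lower susceptible sites per Mb, beside 0.757 in all genes of that length. That difference is part of how they were chosen, since a gene without a site could not enter.

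Of 62 cadherin, protocadherin and catenin genes listed by family, 10 had a lower susceptible site and 0 a higher one, while 4 had a lower and 3 a higher acute site. Over all autosomal protein-coding genes, which include many shorter ones, these shares were 2.71% for lower susceptible, 1.15% for lower acute and 1.12% for higher acute sites. The share of genes with a higher susceptible site is not given here. Only 31 of the 1286 listed susceptible sites were higher, 20 of them in gene bodies, so a count of 0 says little about the family. The family counts include the 6 genes chosen for having sites. By family these were 3 of 18 classical cadherins, 1 of 22 atypical cadherins, 4 of 12 non-clustered protocadherins and 2 of 10 catenins for lower susceptible sites. The listed sites of either comparison lie on the 19 autosomes, so X-linked members such as Pcdh11x could not appear. Of the 13 family genes at least as long as Pcdh7, 8 had a lower susceptible site, 6 of them the genes chosen here. Of the other 6 on autosomes, 2 had one (Fat3 and Ctnnd2), beside 42.5% of all long autosomal genes. Cdh12, Cdh13, Clstn2, Pcdh11x and Ctnna3 had no site in either list.

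The family genes outside the 6 that carried a site were Ctnnd2, Cdh20, Pcdh1, Fat3 and Cdh23. Ctnnd2 encodes delta-catenin, a neuronal protein that binds the inner tail of classical cadherins. It had 2 lower susceptible sites, at 336.5 kb (1.64 ± 1.63, n = 3, against 10.1 ± 0.0354, n = 2, mean ± SD) and at 799.8 kb (2.63 ± 0.883 against 12.8 ± 1.42). It also had a higher acute site at 751.1 kb (11.7 ± 1.70 against 2.28 ± 1.36, SD, n = 2 each), so like Cdh4 and Pcdh15 it was listed lower in one comparison and higher in the other at different positions. Cdh20, a type II cadherin gene, was lower in both, at sites 55.4 and 32.0 kb from the start, where the authors' deposited table has log2 fold changes -2.10 (susceptible) and -3.48 (acute).

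The protocadherin gene Pcdh1 had a lower susceptible site 9.0 kb from the start (1.10 ± 0.950, n = 3, against 9.85 ± 0.339, n = 2, mean ± SD). Fat3, an atypical cadherin that shapes the dendrites of retinal neurons, had one 380.1 kb in (3.33 ± 2.24 against 16 ± 0.735). Cdh23, the partner of Pcdh15 in hair cell tip links, had a lower acute site 185.5 kb in (3.09 ± 1.69 against 17.4 ± 1.39, SD, n = 2 each) and no susceptible site.

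Sites with nearly the same values per library were found in genes of other kinds. Likeness was the Euclidean distance of log2(normalised count + 1) over the libraries of a list, taken for the site of each gene with the smallest p. Over the 5 libraries of the susceptible list, the middle Pcdh9 site had the same values as a site of Inpp4b (distance 0), a phosphoinositide phosphatase gene. The first Pcdh15 site was closest to Vsnl1, a neuronal calcium sensor gene (0.0565), the Ctnna2 site at 228.6 kb to Wdpcp (0.0998), and Cdh18 to Vps41 (0.115). The first Cdh4 site was equally close to Gnal and Herc1 (0.153), and Pcdh7 was closest to 9330182L06Rik (0.494), followed by the Pcdh9 site near its start (0.584).

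Over the 4 libraries of the acute list the Ctnna2 site matched a site of the cell adhesion gene Opcml (distance 0), the Pcdh15 site was closest to Nppc and Ubtd2 (0.173), and the higher Cdh4 site to 4921509O07Rik (0.203).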

How the data were processed

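H3.3 ChIP libraries were described by 18 labelled samples, 9 of ChIP and 9 of Input. Per the submitters' processing notes, Bowtie2 2.2.0, SAMtools 0.1.19 and build mm10 were used, and the table names give diffReps, 250 bp windows and a p cutoff. For diffReps the version, test, normalisation and filters are not stated.

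The authors deposited 2 tables of differential sites. Each gives normalised read counts per library, the group mean as a coverage signal deposited by the authors, an enrichment ratio per group per the file headers, the log2 fold change deposited by the authors, and the p-value and adjusted p-value deposited by the authors. The planned counts of listed sites were kept. No count model was fitted, since only listed sites have values, and the lowest p an exact permutation test could reach is 0.2 with 3 against 2 libraries and 0.333 with 2 against 2. Values per library were whole multiples of 1 read for 100% of values within a tolerance of 0.1 read. Recovered reads gave pooled folds with exact Clopper-Pearson 95% intervals and an added two-sided exact binomial counting test. Read recovery and the counting test were run on simulated data. The pooled folds and their intervals were not checked there. Library positions carry no replicate label. Where nothing else is said, the spread is between these pooled libraries, which the labels call biological replicates.

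Gene bodies and promoters are the authors' annotation, and exons and introns were not analysed here. Gene lengths over the family lists came from RefSeq (GRCm38.p6), where 62 of 62 symbols matched. All sites of the 6 genes, each family gene with a site, and for each site of smallest p the nearest genes by values were named. The genes and lists were chosen with earlier results of these data known. Python 3.11.15, pandas 2.3.3, numpy 2.4.6, scipy 1.17.1 and matplotlib 3.10.9 were used.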

Additional observations from a re-analysis of the deposited data

How the results depend on the processing

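With any 1 library left out, the group means at all 12 susceptible sites and all 4 acute sites still differed at least 2-fold in the listed direction (12 to 12 lower susceptible, 2 to 2 lower acute and 2 to 2 higher acute sites). The libraries of the groups do not overlap at any of the 16 listed sites, so no such run could turn a direction, and the direction is no sign of stability. The log2 ratio moved by more than the spread between libraries in 5 of 76 runs without a library, 4 of 16 with 1 added to each mean and 0 of 16 with medians. A stricter p moved the counts by construction. At the authors' p of at most 0.00001, 3 of the 12 susceptible sites were left (the middle Pcdh9 site, the first Cdh4 site and the Ctnna2 site at 228.6 kb), and 0 lower and 0 higher acute sites. Family genes with a site went from 10 to 4 for lower susceptible, from 4 to 2 for lower acute and from 3 to 0 for higher acute sites. At an adjusted p under 0.001, 0 sites were left in each comparison. The exact counting test on recovered reads, chosen after seeing the data, kept 12 lower susceptible, 1 lower acute (Ctnna2) and 2 higher acute sites, beside 99.5%, 96.0% and 67.8% of all listed sites of those kinds. It reuses the counts by which the sites were listed, so passing it supports nothing further. Reads per site (3 to 10 in susceptible libraries) limit the folds to wide intervals. No paired analysis was possible because the library positions carry no replicate number.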
